A study of Mus musculus with 2 samples.

Results

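The 10 genes described here, Lars2, Mir6236, AY036118, Cmss1, Peak1, Zfp791, Tmem38b, Gm15564, AA474408 and Gm37357, were picked by name, out of 55414 genes in the count tables, as genes whose counts could come from ribosomal RNA (rRNA). Earlier results of the same libraries were known when they were picked, so their levels are given as a description. All 10 had a row in the tables. They were followed in 2 single-nucleus libraries of C2C12, a mouse myoblast cell line grown to near confluence, whose nuclei were isolated, fixed in methanol and run through the Chromium droplet workflow. Nuclei of the in situ polyadenylated library were incubated with yeast poly(A) polymerase (yPAP) and ATP, which puts an A-tail on free RNA 3′ ends so that untailed RNAs can be primed by oligo(dT). Nuclei of the standard library had no polyadenylation step. The yPAP reaction included a warm incubation and was followed by a further wash and pelleting, which the standard nuclei lacked. The enzyme, the incubation and these steps cannot be told apart. The reaction used the RNase inhibitor SUPERase-In, with which the paper saw longer transcripts degrade when tissue sections were polyadenylated. Its effect on these nuclei was not tested. Each group was 1 library of 1 cell line, so no replicate check and no test between the groups was possible. Every interval below is a 95% interval of counting error alone.

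Counts are unique molecular identifiers (UMIs). The authors made them by 2 routes, kallisto, which assigns reads to annotated spliced transcripts, and STAR, which aligns reads to the genome. Barcodes with more than 750 kallisto UMIs, of which less than 5% were mitochondrial, were taken as nuclei, which left 1335 in situ polyadenylated nuclei (1974403 UMIs, median 1088) and 1123 standard nuclei (1382984 UMIs, median 996). The STAR tables held 1328 and 1123 of them, with medians of 6788 and 4478 UMIs. No barcode was a nucleus in both libraries. All 7 myoblast markers looked for were counted in both libraries. Vim had 922 and 1314 UMIs, Des 360 and 636, and Cdh15 42 and 96. The rest were low, with Myod1 at 15 and 13, Cdh2 at 15 and 36, Chrna1 at 8 and 18 and Myf5 at 6 and 9. The 5 markers of other cell types summed to 10 and 39 UMIs, with Epcam, Alb and Adipoq at 0 in both. Among them the endothelial marker Pecam1, at 10 and 35, was above Chrna1 and Myf5 in both libraries.

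Ribosomes contain a small subunit built on 18S rRNA and a large subunit built on 28S, 5.8S and 5S rRNA. The 18S, 5.8S and 28S rRNAs are cut from 1 long precursor, transcribed from repeated ribosomal DNA in the nucleolus, and 5S rRNA comes from separate genes. None of them carries a long poly(A) tail. Ribosomal DNA arrays are largely left out of genome assemblies, but fragments of rRNA sequence lie inside unrelated genes, and a read of rRNA can then be counted under the name of the gene that holds the fragment. Rn18s-rs5, an annotated copy of 18S rRNA at chr17:40157244-40159092, served as the rRNA reference. It took 48.3% of kallisto UMIs in situ polyadenylated and 29.3% standard.

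Of the 10 genes, 6 held large-subunit or 5S rRNA sequence on their own strand, in an untranslated region, an exon or an intron. The large-subunit sequence used for the comparison was a 600-base stretch of the unplaced GRCm39 scaffold MU069435.1 that contains the sarcin-ricin loop of 28S rRNA. A complete 28S sequence was not used here. Lars2, mitochondrial leucyl-tRNA synthetase, matched bases 1 to 140 of the stretch at 99.3% identity in its 3′ untranslated region (chr9:123291113-123291252, plus strand). Gm15564, a long noncoding RNA gene, matched bases 1 to 139 at 98.6% (chr16:35802028-35802166, minus strand), partly in an exon. AA474408, a gene model of the annotation class TEC, still awaiting experimental support, matched bases 1 to 53 at 98.1% in its exon (chr7:109658893-109658945, minus strand). The first bases of the stretch are shown to let the copies be read side by side, with capitals at bases that differ from the scaffold.

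scaffold MU069435.1:1-53 (plus strand): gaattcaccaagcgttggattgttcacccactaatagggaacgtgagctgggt

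Gm15564, chr16:35802114-35802166 (minus strand): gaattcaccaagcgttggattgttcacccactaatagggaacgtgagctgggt

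AA474408, chr7:109658893-109658945 (minus strand): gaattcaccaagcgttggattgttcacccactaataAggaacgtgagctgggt

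Lars2, chr9:123291113-123291142 (plus strand, first 30 bases of its match): gaattcaccaagcgttggattgttcaccca

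Gm15564 was identical to the scaffold over the 53 bases shown, Lars2 over its 30, and AA474408 differed at 1 of 53 bases. That base lies beyond the part of Lars2 that is shown, so Lars2 is not compared with the scaffold there. kallisto compares reads with transcripts in words of 31 bases. The spliced transcripts of Lars2 shared 79 such words with the stretch, those of Gm15564 shared 42 and that of AA474408 shared 6. The same genes shared words with each other, 25 between Lars2 and Gm15564, 26 between Lars2 and AA474408 and 9 between Gm15564 and AA474408. AA474408 thus shared more words with Lars2 than with the stretch. Lars2 and Zfp791 shared 1.

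Peak1, which codes for a pseudokinase of the cytoskeleton, and Zfp791, a zinc finger gene, carried a later portion of the stretch, in introns only. Peak1 matched bases 144 to 565 at 92.4% (chr9:56130856-56131247, minus strand), and Zfp791 matched bases 320 to 585 at 89.6% (chr8:85838493-85838747, minus strand). Their spliced transcripts shared 0 words of 31 bases with the stretch, while the whole gene bodies shared 299 and 35. Each of these introns holds an annotated 57-base miRNA model, Gm55094 in Peak1 and Gm55286 in Zfp791. The miRNA models ENSMUSG00002075551 (chr13:9884505-9884561, minus strand) and ENSMUSG00002076173 (chr16:10961989-10962045, plus strand), which are no members but took up many UMIs, cover the same 57 bases. The window is printed for all of them, with capitals again at bases that differ from the scaffold.

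scaffold MU069435.1:366-422 (plus strand): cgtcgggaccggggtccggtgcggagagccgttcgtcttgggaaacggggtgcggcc

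ENSMUSG00002076173, chr16:10961989-10962045 (plus strand): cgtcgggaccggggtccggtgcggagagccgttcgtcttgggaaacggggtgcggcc

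Peak1 intron, chr9:56130999-56131055 (minus strand): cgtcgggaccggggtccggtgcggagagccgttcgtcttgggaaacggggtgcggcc

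ENSMUSG00002075551, chr13:9884505-9884561 (minus strand): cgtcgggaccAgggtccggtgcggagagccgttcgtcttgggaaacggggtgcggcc

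Zfp791 intron, chr8:85838641-85838697 (minus strand): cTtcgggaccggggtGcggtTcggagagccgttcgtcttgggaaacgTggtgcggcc

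The Peak1 intron and ENSMUSG00002076173 were identical to the scaffold here, ENSMUSG00002075551 differed at 1 base and Zfp791 at 4. The nested models themselves were nearly empty, with Gm55094 at 0 UMIs by both routes in both libraries and Gm55286 at 94 kallisto UMIs in situ polyadenylated and 0 otherwise.

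Tmem38b, the ion channel TRIC-B of the endoplasmic reticulum, held an annotated 5S rRNA gene. n-R5s185, 119 bases long, lies in the 3′ untranslated region of Tmem38b on the same strand (chr4:53860652-53860770), and all 89 words of 31 bases in it are in spliced Tmem38b transcripts. This copy was also the 5S sequence used for all comparisons here, so its full match to Tmem38b follows from its place. No separate 5S sequence was used. n-R5s185 itself had 0 UMIs by both routes in both libraries.

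For Cmss1 (chr16:57122363-57427253, minus strand), whose product is linked to the small ribosomal subunit, and for Gm37357 (chr1:161638614-161641736, minus strand), also of the class TEC, no match of 50 bases or more to the stretch, to Rn18s-rs5 or to 5S rRNA was found. AY036118, a noncoding gene, was not in the GENCODE M39 annotation. In RefSeq's gene table of GRCm38.p6 it overlaps one end of Rn18s-rs5. Mir6236 (chr9:110110355-110110477, plus strand) is annotated as a miRNA hairpin. Its mature product, from RefSeq (GRCm38.p6), is shown because the counts below carry this miRNA's name, with its seed (bases 2 to 8) in capitals.

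mmu-miR-6236: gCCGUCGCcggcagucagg

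This sequence was found at bases 67 to 85 of the 123-base hairpin. Mir6236 shared no word of 31 bases with the rRNA sequences used. Bases 1 to 52 of the hairpin matched chr9:3258793-3258844 at 88.5%, on the minus strand. A stretch 77.2% identical to 18S rRNA (chr9:3260248-3261149) lay before this position on that strand, and one 74.8% identical to the large-subunit stretch (chr9:3257303-3257771) lay after it. A copy on chromosome 14 had the Mir6236-like bases at 90.0% identity and the large-subunit-like bases in the same order, with no 18S match found in the region searched. Only regions of these chromosomes picked for such bases were searched, so how often they lie together elsewhere was not tested.

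By kallisto, the 10 genes took 9.32% (9.28 to 9.36) of all UMIs of in situ polyadenylated nuclei and 0.679% (0.666 to 0.693) of those of standard nuclei, a ratio of 13.7-fold or 3.78 (3.75 to 3.81) on the log2 scale. Lars2 and Mir6236 made up 90.1% of the summed UMIs in the first library and 95.4% in the second. Of the 8 genes with at least 20 UMIs over both libraries, 7 were at least 4-fold higher in the in situ polyadenylated nuclei, where 1.32% of all 8423 genes tested were. Because the genes were chosen from these libraries, nothing is read from this count. The median log2 ratio over the 9 genes with a ratio was 5.06, against -1.41 over all genes tested. Over the 2114 protein-coding genes that reached 50 UMIs in both libraries it was -1.19. A log2 ratio relative to that protein-coding median is given beside the value where it is needed.

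**Figure D1:**
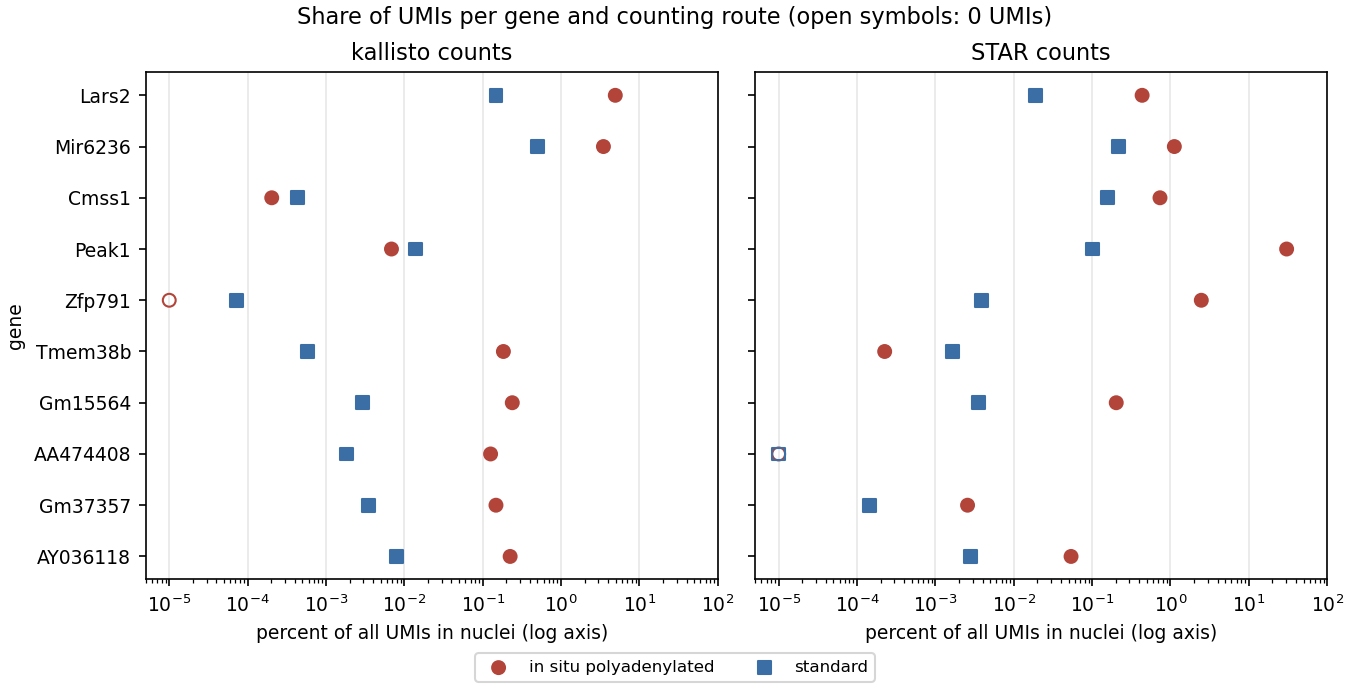
Percent of all UMIs of the 1328 and 1123 nuclei found in both tables (log axis) for each gene, by kallisto (left) and STAR (right), with circles for the in situ polyadenylated and squares for the standard library. An open symbol marks 0 UMIs and is drawn near the left edge. By kallisto Lars2 stands at 4.93% and 0.148%, and by STAR Peak1 stands at 30.4% and 0.102%; Tmem38b lies to the right of its standard value by kallisto and to the left of it by STAR.

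The genes with large-subunit sequence in their transcripts were each higher in the in situ polyadenylated library by kallisto. Lars2 had 97148 UMIs (4.92%) there and 2044 (0.148%) in the standard library, a log2 ratio of 5.06 (4.99 to 5.12), or 6.25 relative to protein-coding genes. Gm15564 had 4705 UMIs (0.238%) and 40 (0.00289%), a log2 ratio of 6.36 (5.92 to 6.85). AA474408 had 2490 UMIs (0.126%) and 25 (0.00181%), a log2 ratio of 6.12 (5.56 to 6.76). The intervals of Gm15564 and AA474408 overlapped each other and lay above that of Lars2.

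Tmem38b, the carrier of 5S sequence, had the widest kallisto gap of the 9 genes with a ratio. Its 3621 UMIs (0.183%) stood against 8 (0.000578%), or 8.31 (7.33 to 9.52) as a log2 ratio. The direction turned with the route: STAR counted 26 and 103 UMIs, a log2 ratio of -2.87 (-3.55 to -2.24), or -0.95 relative to the STAR median of protein-coding genes, which was -1.92. Its paralogue Tmem38a, the other TRIC channel, had 7 kallisto UMIs in each library.

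Mir6236 and Gm37357, in which no such match was found, and AY036118, which was not searched, were higher as well. Mir6236 had 68636 UMIs (3.48%) in situ polyadenylated and 6920 (0.5004%) standard, and its log2 ratio was 2.80 (2.76 to 2.83), the lowest of the 7 genes above 4-fold. It was also the gene among the 10 with the most kallisto UMIs in standard nuclei. For AY036118 the 4419 UMIs (0.224%) in situ polyadenylated and 110 (0.00795%) standard made a log2 ratio of 4.81 (4.54 to 5.10). Gm37357 had 2914 (0.148%) against 48 (0.00347%), a log2 ratio of 5.41 (5.00 to 5.85).

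The other genes were near the floor of the kallisto counts. Peak1 had 135 UMIs (0.00684%) in situ polyadenylated against 192 (0.0139%) standard, a log2 ratio of -1.02 (-1.35 to -0.70), which is 0.17 relative to protein-coding genes. Cmss1 had 4 and 6 UMIs, and its log2 ratio of -1.10 had an interval from -3.37 to 0.98. Zfp791 had 0 and 1, too few for a ratio.

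STAR gave another ranking. STAR gave 8 of 9 genes at least a 4-fold higher share in the in situ polyadenylated library, beside 2.64% of the 13858 genes tested, a count from which nothing is read for the reason given above. Summed over the 10 genes, the in situ polyadenylated share went from 9.33% by kallisto to 35.4% by STAR, a log2 ratio of 1.92, and without Peak1 it went from 9.33% to 5.03%, a log2 ratio of -0.89. In standard nuclei the sum went from 0.679% to 0.506%, a log2 ratio of -0.42. STAR counted 5.86 and 4.51 UMIs in the 2 libraries for each kallisto UMI of the same barcodes. The median log2 ratio of STAR over kallisto share was 0.16 over 11888 genes in situ polyadenylated and 0.55 over 12524 genes standard.

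The genes that carry large-subunit sequence in introns had far higher counts by STAR. Peak1 had 3507920 STAR UMIs, 30.4% of the in situ polyadenylated total, against 135 kallisto UMIs in the same nuclei. In standard nuclei it had 6365, or 0.102%. Zfp791 had 285806 STAR UMIs (2.48%) against 0 by kallisto, and 241 (0.00386%) in standard nuclei. These are the 2 introns with the 57-base window printed above, and ENSMUSG00002076173, which matches it without a difference, had 2181896 STAR UMIs (18.9%) against 0 by kallisto, and 1203 (0.0193%) standard.

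Cmss1 was higher by STAR as well, with 84902 UMIs (0.735%) in situ polyadenylated and 9693 (0.155%) standard, against 4 and 6 by kallisto. Filip1l, a gene that overlaps Cmss1, had 733 and 1608 STAR UMIs. Its log2 ratio between the libraries was -2.02, and that of Cmss1 was 2.24 (2.21 to 2.27).

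Lars2 had lower shares by STAR, 0.435% and 0.0189%, and 0.518 and 0.577 STAR UMIs for each kallisto UMI. Mir6236 had 1.12% and 0.218%, with 1.89 and 1.97 STAR UMIs for each kallisto UMI, and Rn18s-rs5 had 1.77 and 2.13. AY036118 had 1.41 and 1.59. Gm15564 had 4.99 and 5.55 and so kept nearly the same share of UMIs under both routes. For Mir6236, AY036118 and Rn18s-rs5 the number of STAR UMIs for each kallisto UMI thus lay below the 5.86 and 4.51 of the libraries as a whole.

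AA474408 and Gm37357 nearly vanished by STAR. AA474408 had 0 STAR UMIs in either library against 2484 and 25 by kallisto in the same nuclei, which allows a share of up to 2.60e-05% in situ polyadenylated (3 UMIs of the STAR total). Gm37357 had 297 and 9 against 2911 and 48. Of all 10 genes in situ polyadenylated, 3 had at least a 4-fold higher share by STAR (10.8% of all genes tested) and 5 at least a 4-fold lower share (2.46%), and in standard nuclei 3 were higher (15.7%) and 3 lower (3.08%). The difference between the routes was one of the values that chose the genes, so these counts describe them only.

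kallisto's estimated counts need not be whole where UMIs were split between genes. Among the nonzero entries of in situ polyadenylated nuclei, 40.4% were not whole for Lars2, 41.1% for Gm15564 and 15.6% for AA474408. The figure was 0.955% for Tmem38b, 0.0974% for Gm37357 and 0 for Mir6236 and AY036118, against 1.10% over all genes and barcodes of the library. In standard nuclei AA474408 had 4.00% of 25 entries not whole and the other genes had 0, against 2.65% over that library.

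**Figure D2:**
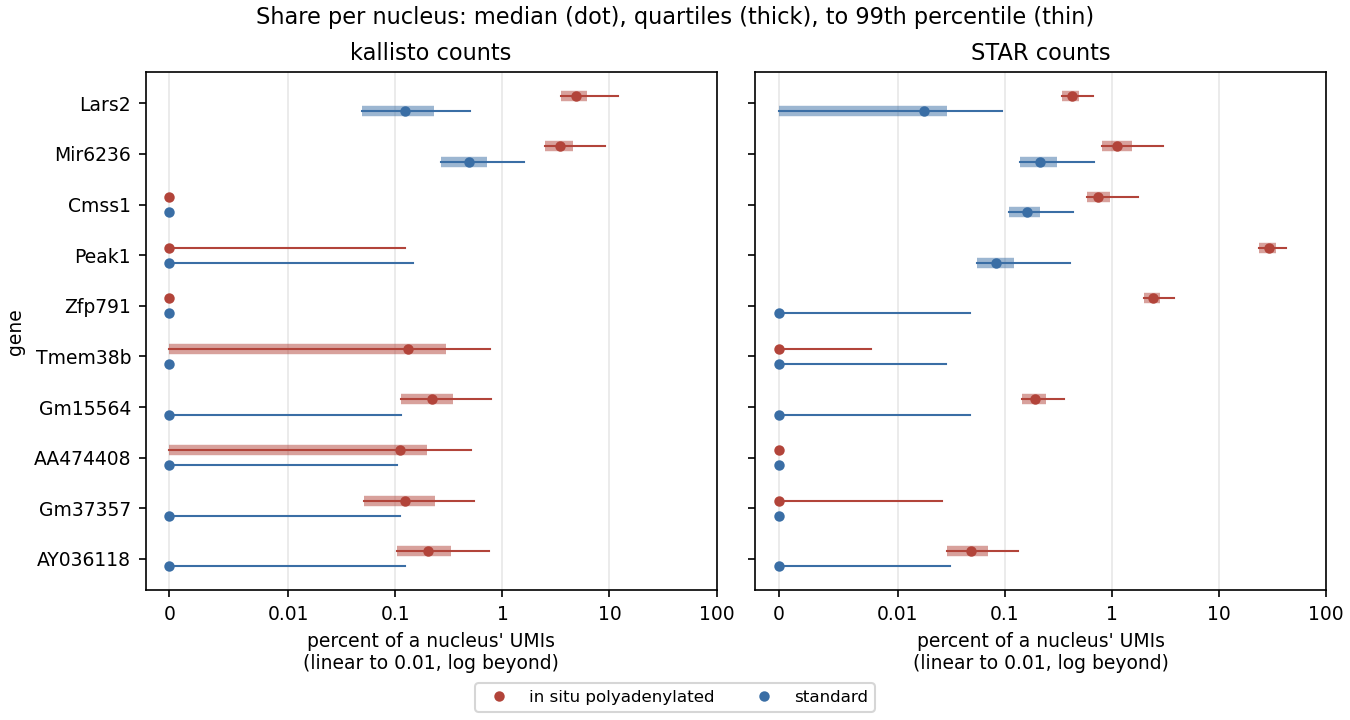
Share of each nucleus' UMIs (linear up to 0.01, log beyond) by kallisto (left) and STAR (right), upper bars for in situ polyadenylated and lower bars for standard nuclei. Dots are medians, thick bars the quartiles, and thin lines run from the lower quartile to the 99th percentile over nuclei; the quartiles of Lars2 and Mir6236 do not overlap between the libraries under either route.

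Across nuclei, the high levels were general and did not come from a few nuclei. Lars2 and Mir6236 had at least 1 kallisto UMI in all 1335 in situ polyadenylated nuclei, with medians of 57 and 40 UMIs and maxima of 710 and 362. In standard nuclei they had a UMI in 76.0% and 95.7% of nuclei, with medians of 1 and 5. The lowest in situ polyadenylated share of Lars2 was 0.0999% and the highest standard share was 0.889%, so the ranges overlapped although the quartiles, 3.54 to 6.19% against 0.0492 to 0.230%, did not.

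The less abundant genes were found in 62.8 to 88.5% of in situ polyadenylated nuclei and in 0.712 to 9.44% of standard nuclei. Gm15564 was in 88.5% against 3.56%, AY036118 in 85.6% against 9.44%, Gm37357 in 77.2% against 4.19%, AA474408 in 72.2% against 2.23% and Tmem38b in 62.8% against 0.712%. When each nucleus was thinned to 750 UMIs, which kept 1335 and 1120 nuclei, Tmem38b and AA474408 were each counted in 56.6% of the in situ polyadenylated ones and in 0.446% and 1.79% of the standard ones.

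Spread beyond counting was read from the thinned counts as variance over mean, which is 1 for counting alone. In situ polyadenylated, Lars2 had a mean of 37.7 UMIs and a ratio of 7.82, and Mir6236 a mean of 27.6 and a ratio of 5.85, beside 23.5 for Rn18s-rs5 at a mean of 379.7 UMIs. Tmem38b had 1.90 at a mean of 1.35, while AY036118, Gm15564, AA474408 and Gm37357 lay between 1.25 and 1.36. The median over the 33 genes with a mean of at least 0.5 UMI was 1.31. In standard nuclei Mir6236 stood at 1.98 and Lars2 at 1.06, at means of 3.94 and 1.12, and the median over 66 genes was 1.14. The ratio grows with the mean, so the libraries were not compared on it.

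Peak1 by STAR was present in every in situ polyadenylated nucleus, with 1.12 to 43.9% of the UMIs, quartiles of 23.6 and 34.3% and a median of 29.4%. In standard nuclei its median was 0.0829% and its highest share 2.62%. Zfp791 had 0.292 to 4.78% in situ polyadenylated and was found in 15.8% of standard nuclei. Cmss1 was found in all in situ polyadenylated and 98.8% of standard nuclei, with medians of 0.748% and 0.160%.

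To ask which genes followed 18S rRNA from nucleus to nucleus, the share of each gene among UMIs outside Rn18s-rs5 was correlated (Spearman) with the share of Rn18s-rs5. These correlations are descriptions: all points share a library and the depth of the nucleus, counts of low genes are sparse, and the rule that chose the genes used them. Genes with a UMI in at least 10% of nuclei entered. In situ polyadenylated, over 1335 nuclei, the 7 genes that entered had a median of 0.11, against -0.01 over 589 genes, and 2 of them reached 0.2, where 2.21% of the genes did. The sign of that median turned with the measure, to -0.14 on shares of all UMIs, -0.082 as Pearson's r of log2(CPM + 1) and -0.24 by STAR. In standard nuclei, over 1123 nuclei, 2 of 3 reached 0.2, where 1.22% of 1397 genes did.

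Mir6236 had the highest correlation with Rn18s-rs5 of all genes that entered, in both libraries and by both routes. By kallisto it was 0.77 in situ polyadenylated and 0.59 standard, and by STAR 0.80 and 0.71. Lars2 had 0.33 and 0.30 by kallisto. By STAR, Lars2 had -0.35 in situ polyadenylated and 0.22 standard. Gm15564 had 0.15 by kallisto in situ polyadenylated, AA474408 0.11, AY036118 0.11, Gm37357 0.10 and Tmem38b 0.02. AY036118, which overlaps Rn18s-rs5 in RefSeq, thus had a lower value than Mir6236. It had a median of 2 kallisto UMIs per in situ polyadenylated nucleus against 40 for Mir6236, so how closely each followed Rn18s-rs5 cannot be ranked from these values.

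**Figure D3:**
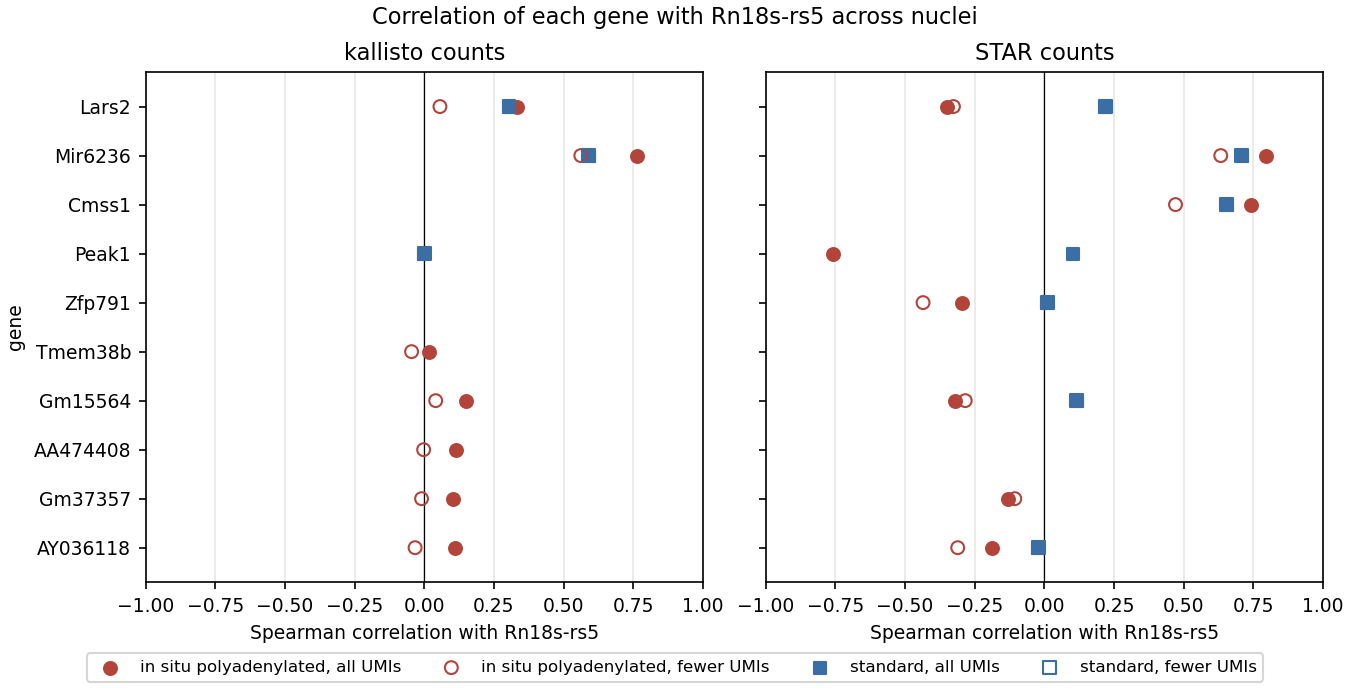
Spearman correlation of each gene's share with that of Rn18s-rs5 across nuclei, by kallisto (left) and STAR (right); filled symbols use all UMIs, and open ones leave out ENSMUSG00002075551 (kallisto) or Peak1 and ENSMUSG00002076173 (STAR). Genes with a UMI in under 10% of nuclei have no symbol. Mir6236 stands at 0.56 to 0.80 in each setting, and Cmss1 at 0.47 to 0.74 by STAR.

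A single 57-base gene moved these correlations. ENSMUSG00002075551 had 296466 kallisto UMIs, 15.02% of the in situ polyadenylated total, all of them in 507 of 1335 nuclei, where it took a median of 30.1% of the UMIs. In the standard library it had 1 UMI. Its correlation with Rn18s-rs5 was -0.74 and with Mir6236 -0.62. Rn18s-rs5 and Mir6236 were shares of totals that include the UMIs of ENSMUSG00002075551, which pushes them down where it is high. With its UMIs left out of the totals, Mir6236 kept 0.56 with Rn18s-rs5, while Lars2 went from 0.33 to 0.06 and the other 5 genes lay between -0.05 and 0.04. The median over all genes that entered went down too, from -0.011 to -0.055. By rank among them Lars2 went from 5 of 589 to 6 of 588, and Gm15564 rose from 20 to 11. AA474408 fell from 32 to 42, Gm37357 from 37 to 69, AY036118 from 35 to 177 and Tmem38b from 180 to 240. Then 1 of 7 genes reached 0.2, where 0.34% of 588 genes did. Among the standard nuclei the values stayed at 0.59 for Mir6236 and 0.30 for Lars2.

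Nuclei with and without ENSMUSG00002075551 were set side by side in the in situ polyadenylated library. Of the 1335 nuclei, 1169 had more than 750 UMIs outside that gene, so some nuclei with it were kept only through its UMIs. Median total UMIs were 1366 in nuclei with it and 1007.5 in those without. Rn18s-rs5 had a median of 40.2% in the 507 nuclei with it and 57.8% in the 828 without, but of the UMIs outside that gene the medians were 56.7% and 57.8%. Mir6236 had 2.66% and 3.84%, and 3.86% and 3.84% outside it. Lars2 had 4.84% and 4.99%, and 6.98% and 4.99% outside it. By STAR, in the 505 and 823 of these nuclei in the STAR table, Peak1 had medians of 32.9% and 27.0% and Cmss1 of 0.660% and 0.806%. Peak1 was thus not split into nuclei with and without it, as ENSMUSG00002075551 was by kallisto.

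By STAR the genes fell on both sides of 0. Cmss1 had a correlation with Rn18s-rs5 of 0.74 in situ polyadenylated and 0.65 standard. Peak1 had -0.76, Gm15564 -0.32, Zfp791 -0.30, AY036118 -0.19 and Gm37357 -0.13 in situ polyadenylated, where the median over 8 genes was -0.24. Peak1, with 30.4% of the STAR UMIs there, is part of the total of which Rn18s-rs5 is a share. The share of Rn18s-rs5 is thus pushed down where Peak1 is high, and how far this made the -0.76 was not tested. In standard nuclei Peak1 had 0.10, Gm15564 0.12, Zfp791 0.01 and AY036118 -0.02. Of the genes that entered by STAR, 2 of 8 in situ polyadenylated and 3 of 7 standard reached 0.2, where 3.37% and 0.894% of all genes did. With Peak1 and ENSMUSG00002076173 left out, Mir6236 had 0.63, Cmss1 0.47, Lars2 -0.33, AY036118 -0.31, Gm15564 -0.28 and Zfp791 -0.44 in situ polyadenylated, and 2 of 7 genes reached 0.2, where 0.547% of 4386 genes did.

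**Figure D4:**
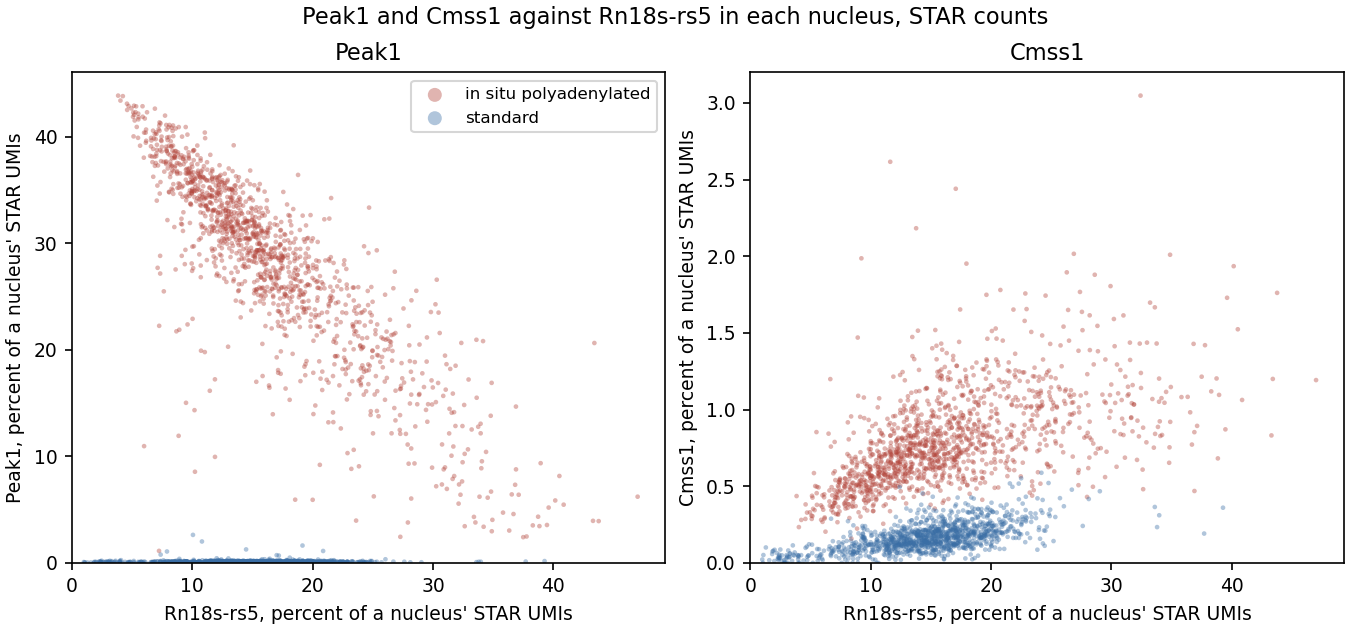
Percent of a nucleus' STAR UMIs in Peak1 (left) and Cmss1 (right) against that in Rn18s-rs5, 1 point per nucleus, 1328 in situ polyadenylated and 1123 standard. Peak1 runs from 1.12 to 43.9% in situ polyadenylated and is lower where Rn18s-rs5 is higher, while Cmss1 is higher there; both axes are shares of the same total.

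Among themselves the genes correlated positively by kallisto in situ polyadenylated, with a median of 0.25 over 21 pairs and a range from 0.09 to 0.55. Lars2 and Gm15564, which share the first bases of the large-subunit stretch, had the highest value, 0.55, followed by Lars2 with AY036118 at 0.49 and with Gm37357 at 0.42. Lars2 with AA474408 had 0.37, with Tmem38b 0.34 and with Mir6236 0.33. With ENSMUSG00002075551 left out the median was 0.27, but the range was from -0.018 to 0.60 and the pairs of Mir6236 lay between -0.018 and 0.078, that with Lars2 from 0.33 to 0.078. In standard nuclei only Lars2, Mir6236 and Peak1 could be paired, and Lars2 with Mir6236 had 0.33, the others 0.03 each.

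By STAR the pairs in situ polyadenylated fell on both sides of 0, with a median of 0.064 over 28 pairs. Mir6236 and Cmss1 correlated at 0.81. Peak1 correlated at 0.52 with Lars2, 0.47 with Gm15564 and 0.29 with Zfp791, and at -0.58 with both Mir6236 and Cmss1. The UMIs of Peak1 are part of the total for all these shares, which pushes the other shares down where Peak1 is high. Peak1 and ENSMUSG00002076173 had 0.97. With these 2 left out, Lars2 with Gm15564 went from 0.33 to 0.73, Lars2 with Zfp791 from 0.18 to 0.71 and Zfp791 with Gm15564 from 0.12 to 0.64, while Mir6236 with Cmss1 went from 0.81 to 0.67 and was no longer the highest pair. Prickle2 and Zbtb10, outside the 10 and next most like Lars2 by STAR after ENSMUSG00002076173, rose too. With Lars2 they went from 0.31 to 0.63 and from 0.30 to 0.63, so such a rise was not particular to the 10 genes. No rRNA match was looked for in these 2 genes. In standard nuclei Mir6236 and Cmss1 had 0.60, Mir6236 and Lars2 0.23 and Cmss1 and Lars2 0.21, while Peak1 had between 0.00 and 0.13 with each of the other genes.

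Within a gene, the shares by the 2 routes could be compared in the same in situ polyadenylated nuclei where both had enough counts. The correlation was 0.82 for AY036118, 0.77 for Mir6236, 0.66 for Lars2, 0.58 for Gm15564 and 0.08 for Gm37357, beside 0.67 for Rn18s-rs5. In standard nuclei it was 0.85 for Mir6236, 0.34 for Lars2 and 0.18 for Peak1, beside 0.94 for Rn18s-rs5. Across routes, Peak1 by STAR correlated at 0.79 with Lars2 by kallisto and at 0.51 with ENSMUSG00002075551 by kallisto; these pairs were chosen after their values were seen.

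The genes outside the 10 whose kallisto shares were most like Rn18s-rs5, of 582 compared in situ polyadenylated, were Plec (0.47), Arglu1 (0.42) and Srrm2 (0.37), all below Mir6236. In standard nuclei, of 1394, they were Ankrd11 (0.36), Plec (0.31) and Arglu1 (0.28). Most like Lars2 were H1f3 (0.27), Grip2 (0.24) and Neat1 (0.21) in situ polyadenylated, and Rrbp1 (0.16), Plec (0.14) and Paxbp1 (0.14) standard. With ENSMUSG00002075551 left out, the in situ polyadenylated values were 0.21 for Plec, 0.16 for Arglu1 and 0.051 for Srrm2 with Rn18s-rs5, and 0.23 for H1f3, 0.24 for Grip2 and 0.15 for Neat1 with Lars2. Lars2 then had 0.36 to 0.60 with Gm15564, AY036118, Gm37357, AA474408 and Tmem38b, above those 3 genes, and 0.078 with Mir6236, below them.

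Barcodes with 1 to 100 kallisto UMIs, too few to pass as nuclei, show what was counted outside them. In situ polyadenylated, 229964 such barcodes held 2055642 UMIs, and the 10 genes took 10.1% of them against 9.32% in nuclei. Lars2 was at 4.46% against 4.92%, Mir6236 at 3.47% against 3.48%, Gm15564 at 0.199% against 0.238% and AA474408 at 0.127% against 0.126%. AY036118 was 3.57-fold, Gm37357 3.41-fold and Tmem38b 2.75-fold higher in the low-UMI barcodes. These were 3 of 8 genes at least 2-fold higher, where 18.5% of all 8012 genes tested were, and 0 of 8 were at least 2-fold lower, where 0.899% were. ENSMUSG00002075551, no member, was 188-fold lower, at 0.0801% against 15.02% in nuclei. Its UMIs lower the share of every other gene in nuclei, and the comparison was not made without them. The size of the in situ polyadenylated differences above, and the direction of small ones such as 10.1% against 9.32%, can thus depend on that gene. In the standard library, over 226358 barcodes, the sum was 0.390% against 0.679% in nuclei, a log2 ratio of -0.80. This gap rested on the range of UMIs taken, since the ratio was -0.017 for barcodes with 1 to 10 UMIs and -0.034 for those with over 100 and up to 500. Lars2 was at 0.0841% against 0.148% and Mir6236 at 0.269% against 0.5004%, and AY036118 alone, 1 of 9 genes, was at least 2-fold higher (2.10-fold), where 10.2% of all genes were, while 0 of 9 were at least 2-fold lower, where 2.01% were. The shares of nuclei with a UMI given above may include RNA from outside nuclei, whose part in them was not tested.

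Genes related to the 10 by function are given from lists, with their kallisto log2 ratios between the libraries. Of 16 mitochondrial aminoacyl-tRNA synthetases other than Lars2, which charge the tRNAs of mitochondria, 9 had at least 20 kallisto UMIs over both libraries, and their log2 ratios ran from -2.08 to -0.81 with a median of -1.19. Vars2 and Tars2 had the most UMIs, 123 each in situ polyadenylated. Of 22 genes of the small-subunit processome, the particle that folds and cuts the 18S precursor, 21 were in the tables under the symbols used and 20 had at least 20 UMIs, and their log2 ratios ran from -2.80 to -0.31 with a median of -1.16. Nop56 had the most in situ polyadenylated, 224 UMIs. None of these genes was 4-fold higher by kallisto, and none of 16 and 21 by STAR, where the medians were -2.01 and -1.70. Of the relatives of Peak1, the pseudokinase Prag1 had 6 UMIs in each library.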

How the data were processed

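The authors trimmed reads with cutadapt 3.4 and quantified them by 2 routes on GRCm39 with GENCODE M28. The deposited kallisto 0.48.0 and bustools 0.41.0 matrices hold estimated counts of UMIs for every barcode, strand-aware, not normalized. The deposited STAR 2.7.10a matrices hold whole-number UMI counts for a subset of barcodes, with no account of that choice in the sources used here and with multimapping reads allowed. Reads that fit several genes can be moved or split between genes by either route.

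Nuclei were kept as in the study's methods (more than 750 kallisto UMIs, under 5% mitochondrial). Doublets were not called. UMIs were summed over nuclei and rounded. Ratios carry exact conditional Poisson intervals and shares exact Clopper-Pearson intervals at 95%, for counting error only. Ratios against 0 used 3 UMIs per library in its place, and none was made where both counts were at or below 3. Correlations were Spearman's.

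The 10 genes and all lists were chosen with earlier results of these data known. The text names the 10 genes, Rn18s-rs5, 2 comparators, the 3 genes most like Lars2 and like Rn18s-rs5 in each library, and the relatives and markers of fixed lists. Gm55094, Gm55286 and n-R5s185 were added after their values were seen.

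Annotation came from GENCODE M39 (54749 of 55414 genes matched by identifier, 9 of the 10 genes). rRNA matches came from BLAST+ 2.17.0 (E-value at most 1e-05, at least 50 aligned bases), and the windows shown were chosen after values were seen. Python 3.11.15, numpy 2.4.6 and scipy 1.17.1 were used, and the ratio and correlation steps were tested on simulated data.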

Additional observations from a re-analysis of the deposited data

Results flagged for a closer look

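The STAR tables also held barcodes that were not retained as nuclei, which no comparison above used. In the 2463 such barcodes of the in situ polyadenylated library, Peak1 took 31.5% of the UMIs, Zfp791 2.83% and Cmss1 0.722%. In the 7351 such barcodes of the standard library the shares were 0.0980%, 0.00366% and 0.166%. They were singled out as signal in unused barcodes above the level of the standard library.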

How the results depend on the processing

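No paired analysis was possible because neither library has a replicate. By STAR the summed log2 ratio between the libraries was 6.13 and the median 4.26; the summed ratio was 3.88 with more than 1500 UMIs per nucleus, 4.23 outside Rn18s-rs5 and, added after seeing the data, 4.01 outside ENSMUSG00002075551. Of the single genes, Peak1 (8.22) and Tmem38b (-2.87) turned by STAR. The median correlation with Rn18s-rs5 in situ polyadenylated turned to -0.24 by STAR, -0.14 on shares of all UMIs, -0.082 as Pearson's r of log2(CPM + 1), -0.0023 outside ENSMUSG00002075551 and -0.28 by STAR outside Peak1 and ENSMUSG00002076173, the last 2 added. In standard nuclei it was 0.12 by STAR, 0.20 with more than 500 UMIs, 0.21 on shares of all UMIs and 0.17 by STAR outside Peak1 and ENSMUSG00002076173. The median among the genes in situ polyadenylated was 0.064 by STAR, 0.19 when thinned to 750 UMIs, 0.19 as Pearson's r and 0.11 by STAR outside Peak1 and ENSMUSG00002076173. STAR over kallisto, in situ polyadenylated, was 1.20 outside Rn18s-rs5 and -0.89 without Peak1, which was added. Low-UMI barcodes over nuclei in situ polyadenylated gave 0.19 with 1 to 10 UMIs, 0.37 with over 100 and up to 500, and 0.33 outside Rn18s-rs5, and standard -0.017 and -0.034 for the first 2. Summed and median values stayed close in 42 other recomputations, that is within the counting interval, within 1.5-fold, or for correlations within a Fisher interval over nuclei. The Fisher interval treats nuclei of 1 library as independent and was applied to medians, so it only sorts the values and tests nothing. For single genes, 52 alternative ratios stayed within their intervals and 16 moved, and 14 shares of nuclei with a UMI stayed and 46 moved. The causes were not tested. Ratios under about 50 standard UMIs rest on few counts, and a complete 28S sequence would be needed to place Mir6236, Cmss1, Gm37357 and AY036118.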

Other observations

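By STAR, the genes outside the 10 whose shares were most like Rn18s-rs5, of 4380 compared, were Taco1 (0.77), Gm48099 (0.68) and Srrm2 (0.61) in situ polyadenylated and, of 7262, Taco1 (0.65), Gm47283 (0.58) and Wtap (0.54) standard. Taco1, which activates translation of a mitochondrial mRNA, correlated with Cmss1 at 0.61 and 0.54, and Gm48099 with Cmss1 at 0.73 in situ polyadenylated. With Peak1 and ENSMUSG00002076173 left out, the in situ polyadenylated values with Rn18s-rs5 were 0.46 for Taco1, 0.47 for Gm48099 and 0.34 for Srrm2, and those with Cmss1 were 0.30 for Taco1 and 0.58 for Gm48099. These genes came from the same rule applied to the STAR tables after the data were seen, and no rRNA match was looked for in them.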
